A study of Mus musculus with 2 samples.

Results

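The genes described here are 10 genes that type III taste cells are known for: the amine genes *Ddc*, *Tph1*, *Slc18a2* and *Maoa*, the GABA genes *Gad1*, *Gad2* and *Slc6a11*, the granins *Chga* and *Chgb*, and the adhesion gene *Ncam1*. They were selected by gene symbol, by a rule that sets no threshold on their values, and each had 1 row among the 18498 rows of the gene table. RNA sequencing was done on 2 mouse tongue samples, the circumvallate papillae (CvP), which hold many taste buds, and the surrounding epithelium without papillae (Epi). Both came from wild-type male C57BL/6J mice aged 12 to 30 weeks on normal chow, with no transgene or treatment named for either, and RNA of 20 or more mice was pooled for each tissue. By the study's description, the dissected CvP included epithelial tissue around the taste buds, so both libraries held epithelium. The comparison asks which genes were expressed at higher levels in the papillae than in epithelium without them.

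Type III cells are the taste bud cells that respond to acids and that form conventional synapses with the gustatory nerve. They are known to hold serotonin and GABA, to carry dense-cored vesicles, and to be marked by the cell adhesion molecule NCAM. Serotonin is made by hydroxylation of tryptophan followed by removal of a carboxyl group by the *Ddc* enzyme, whereas GABA is made directly from glutamate by the *Gad* enzymes.

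The 3 decarboxylases among these genes share a cofactor, pyridoxal phosphate, which is bound by the lysine of a short Asn-Pro-His-Lys motif. Their coding sequence around it is shown because the short motif is common to all 3 while the bases around it differ, which is what lets reads of the related genes be told apart. The sequences are 60 bases of transcripts of GENCODE M1 on NCBI37/mm9, and the capitals mark the 4 codons of the motif. The lysine is codon 303 in *Ddc*, 404 in *Gad1* and 396 in *Gad2*.
Ddc: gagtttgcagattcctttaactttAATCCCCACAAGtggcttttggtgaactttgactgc
Gad1: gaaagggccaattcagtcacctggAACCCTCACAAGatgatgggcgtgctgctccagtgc
Gad2: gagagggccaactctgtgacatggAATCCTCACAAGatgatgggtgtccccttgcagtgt
The *Ddc* stretch lies on the minus strand across exons 8 and 9 of 15 (chr11:11739401-11739403 and chr11:11735756-11735812). The *Gad1* stretch lies on the plus strand across exons 12 and 13 of 17 (chr2:70429223-70429227 and chr2:70431489-70431543). The *Gad2* stretch lies on the plus strand across exons 11 and 12 of 16 (chr2:22525281-22525285 and chr2:22529464-22529518). *Gad1* and *Gad2* were identical at 47 of the 60 bases (78.3%), and *Ddc* was identical to either at 32 (53.3%). Over their whole transcripts, the most alike windows of 75 bases, the length of 1 read, differed by 12 bases between *Gad1* and *Gad2*.

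Levels are given as reads per kilobase of exon model per 1000000 mapped reads (RPKM), a scale that is per length. Comparing genes with each other therefore rests on the listed length of each exon model. In some genes this length was well above that of the longest coding transcript, as in *Gad1* (8.669 against 3.355 kb). Depth was estimated at about 28400000 mapped reads for CvP and 27900000 for Epi. Each tissue had 1 library, so no test between tissues was possible, and the intervals below are 95% exact intervals of counting error alone, from estimated reads. In bulk tissue, fewer cells of a type and less RNA per cell cannot be told apart. Over the 10363 rows with an RPKM of at least 1 in both libraries the median CvP/Epi ratio was 1.31, so that an ordinary row was somewhat higher in the CvP.

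Type III cells were first checked by markers that are not among the 10 genes. All 6 had a ratio above 3, against 25.4% of all rows, and their RPKM summed to 117 in CvP and 0.43 in Epi. The acid-sensing proton channel gene *Otop1* had 20.07 RPKM in CvP and 0 in Epi. The polycystin genes *Pkd2l1* and *Pkd1l3* had 16.76 and 47.57 in the CvP against 0 and 0.4 in the Epi. The other markers were the ubiquitin hydrolase gene *Uchl1* (15 and 0), the SNARE gene *Snap25* (11.11 and 0) and the carbonic anhydrase gene *Car4* (6.24 and 0.03). In *Snap25*, with its long listed model, 1 Epi read would round to 0. *Snap25* and *Uchl1* are also known from nerve. The CvP library thus held RNA of type III markers at levels from 6.24 to 47.57 RPKM.

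Of the 10 genes, 7 were higher in the CvP by a ratio above 3 with more than 3 reads, and none was lower by the same measure. These 7 were *Ddc*, *Gad1*, *Gad2*, *Slc6a11*, *Chga*, *Chgb* and *Ncam1*. Of all rows, 20.8% were higher and 2.67% were lower by that measure. *Slc18a2* and *Maoa* had ratios between 1/3 and 3, and *Tph1* had 1 read in the CvP and none in the Epi. With no minimum number of reads, 8 of the 10 had a ratio above 3, *Tph1* now included, against 25.4% of all rows. The median log2 ratio of the 10 was 4.09 with 0.1 RPKM added to each value, against 0.49 over all rows.

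**Figure D1:**
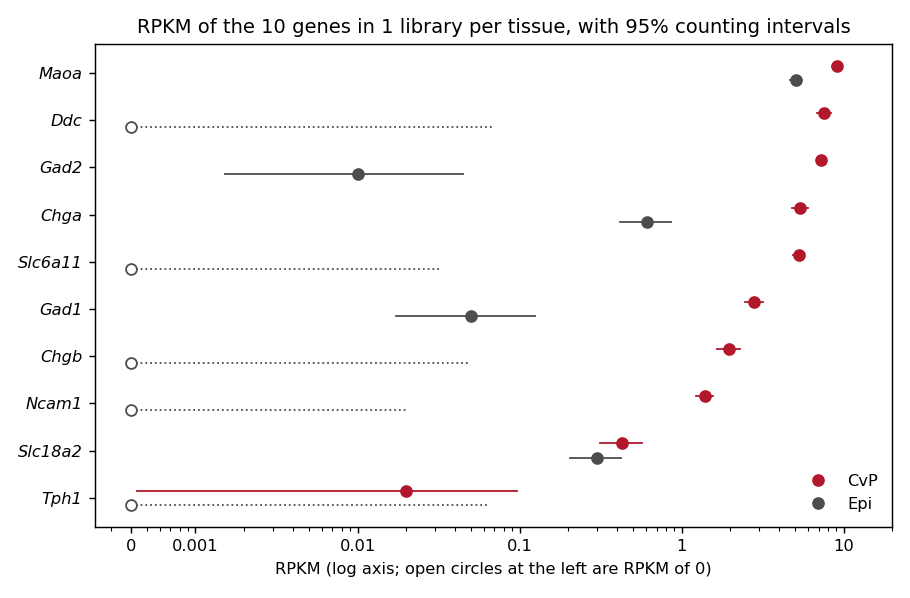
RPKM of the 10 genes on a log axis, CvP in red and Epi in grey, ordered by CvP level; lines are 95% counting intervals, and open circles mark an RPKM of 0 with a dotted line up to the upper limit. The Epi point lies far to the left of the CvP point in *Ddc*, *Gad2*, *Slc6a11*, *Gad1*, *Chgb* and *Ncam1*, at a shorter distance in *Chga*, and close to it in *Maoa* and *Slc18a2*.

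The levels in the CvP were moderate. The 10 genes ran from 0.02 RPKM in *Tph1* to 9.06 RPKM in *Maoa*, with a median of 4.05, against a median of 3.74 over all rows. In the Epi their median was 0.005 RPKM, against 1.94 over all rows, and *Maoa* alone reached 1 RPKM. None of the 10 passed the 2 criteria used in the study together, more than 10 RPKM in the CvP and a ratio above 3, which 2.35% of rows passed. *Maoa*, the member closest to the level required, failed the ratio too. The criteria were applied here to the RPKM as deposited, and this count does not say which genes were on the list the study drew up. After each library was scaled to a total RPKM of 1000000, *Ddc*, *Gad2*, *Slc6a11* and *Chga* passed both, as did 7.47% of rows.

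**Figure D2:**
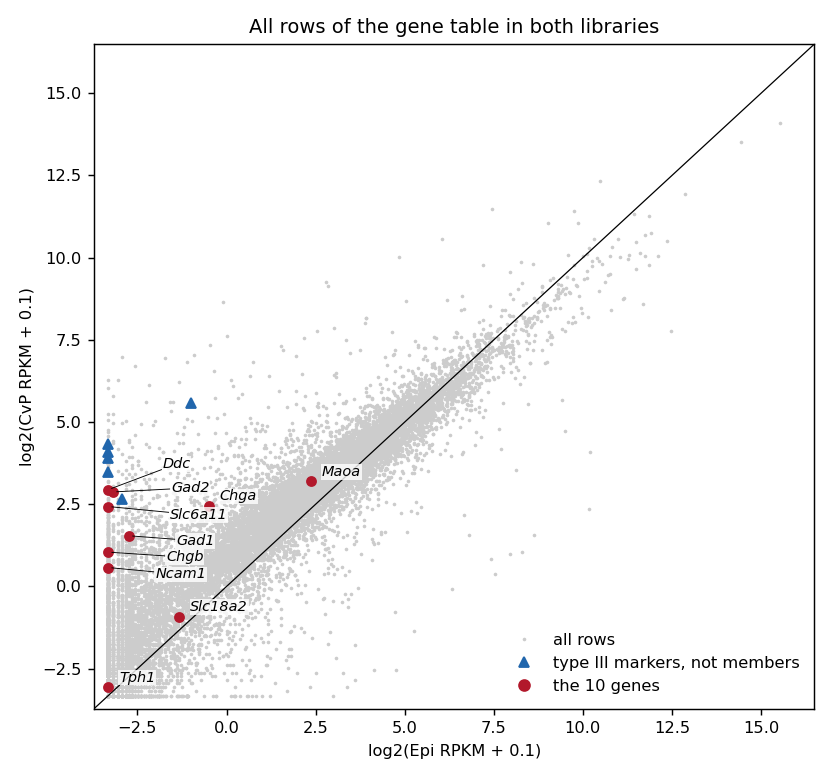
All 18498 rows by Epi RPKM (horizontal) and CvP RPKM (vertical), both as log2 of the RPKM plus 0.1, with the line of equal values. The 10 genes are red and the 6 type III markers blue. *Ddc*, *Gad1*, *Gad2*, *Slc6a11*, *Chgb*, *Ncam1* and *Tph1* stand at or close to the left edge, where Epi is near 0, at CvP levels below most of the markers. *Chga* lies further right, at 0.61 RPKM in Epi, and *Maoa* and *Slc18a2* lie within the main cloud.

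In the order of CvP levels, *Maoa* was followed by *Ddc* and *Gad2*, whose levels of 7.59 and 7.23 RPKM did not differ beyond counting error (ratio 1.05, interval 0.936 to 1.17). *Chga* and *Slc6a11* came next at 5.39 and 5.29 RPKM and did not differ beyond it either (ratio 1.02, interval 0.884 to 1.18). *Gad1*, *Chgb*, *Ncam1*, *Slc18a2* and *Tph1* then followed in that order with intervals that did not overlap. The order and intervals take the listed lengths as given. These exceeded the longest transcript in genes such as *Gad2* (9.313 against 5.744 kb), *Gad1* (8.669 against 3.355 kb) and *Ncam1* (9.429 against 6.612 kb). Levels over transcript lengths were not computed, so the order may depend on the length used.

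The serotonin genes did not share 1 pattern. *Ddc* (chr11:11714104-11798147, minus strand), the aromatic amino acid decarboxylase that makes serotonin and dopamine, had 7.59 RPKM in CvP (6.88 to 8.35) and 0 in Epi. This corresponds to about 419 reads against none, and *Ddc* was at least 111-fold higher in the CvP. It was the highest in the CvP of the 5 genes without an Epi read. The upper limits of the Epi levels of these 5 ran from 0.0200 RPKM in *Ncam1* to 0.0679 RPKM in *Ddc*. These limits take an RPKM of 0 as no read, although in *Ncam1* 1 Epi read would also round to 0.

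*Tph1* (chr7:53902501-53927907, minus strand), which encodes the peripheral tryptophan hydroxylase, the enzyme of the first and rate-limiting step, had 0.02 RPKM in CvP and 0 in Epi. That is 1 read, so no ratio was formed, and the upper limit of its CvP level was 0.0962 RPKM. The neuronal tryptophan hydroxylase gene *Tph2* had 0.06 RPKM in the CvP, about 4 reads, and 0 in the Epi. The transcripts of the hydroxylases were therefore barely detected at this depth, and *Ddc* exceeded *Tph1* in the CvP by 380-fold with an interval, from 78.4 to 17400, that is wide because of the single read.

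*Slc18a2* (chr19:59335368-59370502, plus strand), the vesicular monoamine transporter that loads serotonin into vesicles, had 0.43 RPKM in CvP (0.312 to 0.569) and 0.30 in Epi (0.206 to 0.426). Its ratio of 1.43 had an interval of 0.881 to 2.29 and so was not distinguishable from 1 at this depth. Its level in the CvP was low next to the enzyme before it in the pathway, with *Ddc* at 17.7 times the *Slc18a2* level (13.1 to 24.7). The related transporter *Slc18a1* had 1.32 RPKM in CvP and 1.07 in Epi, a ratio of 1.23 (0.934 to 1.64). The plasma membrane serotonin transporter *Slc6a4*, which takes the amine back up, had 5.01 and 4.03 RPKM, a ratio of 1.24 (1.07 to 1.45). Divided by the median ratio of 1.31, *Slc18a1* and *Slc6a4* turned to 0.94 and 0.95, while *Slc18a2* stood at 1.09. None of the 3 transporters reached a ratio of 3, and their highest upper limit was the 2.29 of *Slc18a2*.

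*Maoa* (chrX:16196824-16264938, plus strand), the mitochondrial monoamine oxidase that breaks down serotonin, had the highest CvP level of the 10 genes and the only substantial Epi level. It had 9.06 RPKM in CvP (8.52 to 9.62) and 5.08 in Epi (4.68 to 5.51). The ratio was 1.78 (1.61 to 1.97), which is above 1 and below the ratio of 3, and 1.36 after division by the median ratio. *Maob*, its relative, had 0.05 and 0.07 RPKM. The rows most like *Maoa* over the 2 libraries, by distance on the log2 scale, were *Tubgcp4* (9.24 and 5.07 RPKM), *Ibtk* (8.99 and 4.97) and *Rnf34* (8.98 and 4.97), which are not genes of amine metabolism.

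**Figure D3:**
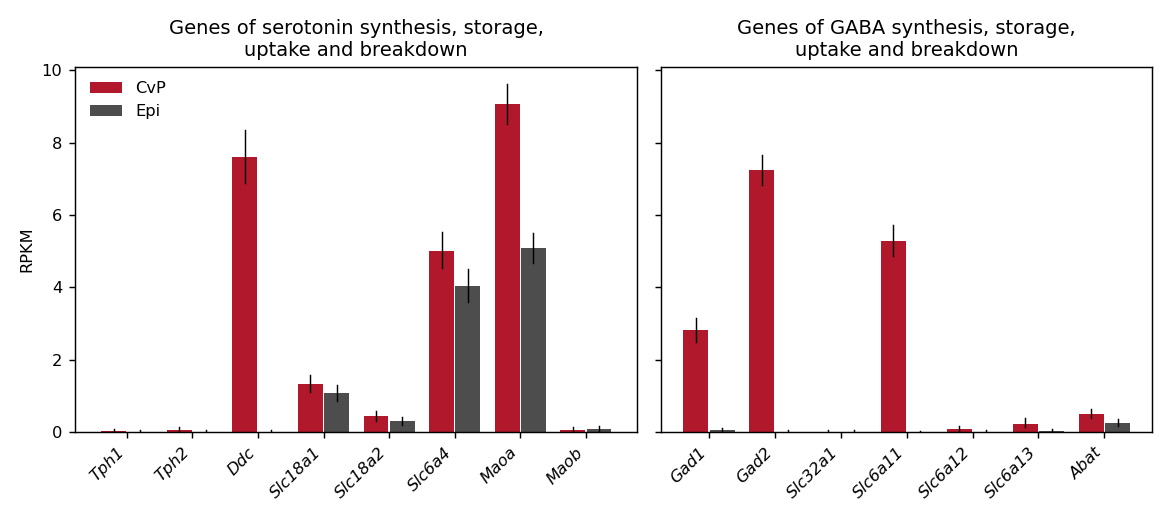
RPKM in CvP (red) and Epi (grey) of genes in the steps from serotonin synthesis to breakdown (left) and from GABA synthesis to breakdown (right); bars start at 0, lines are 95% counting intervals, and only *Ddc*, *Slc18a2*, *Maoa* and *Tph1* on the left and *Gad1*, *Gad2* and *Slc6a11* on the right belong to the 10 genes. *Ddc*, *Gad1*, *Gad2* and *Slc6a11* show a CvP bar with almost no Epi bar, and *Slc6a4*, *Slc18a1*, *Slc18a2* and *Maoa* show both.

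Other serotonin genes were taken from a list of 28, of which 22 were analysed. Of the 18 outside the 10 genes, 9 were higher in the CvP, none was lower, 5 lay between and 4 had at most 3 reads in either library. For this list and those below, the shares of all rows were 20.8% higher and 2.67% lower. In 7 of the 9 the lower limit of the ratio was above 1, and the median log2 ratio of the 18 was 0.84. Genes for tetrahydrobiopterin, the cofactor of the hydroxylases, were among those that were higher. *Gch1*, the first enzyme of its synthesis, had 5.44 and 0.96 RPKM, a ratio of 5.67 (4.44 to 7.38), and *Pts*, the next enzyme, had 17.7 and 5.43 RPKM, a ratio of 3.26 (2.72 to 3.92). *Pcbd1*, which regenerates the cofactor, had 1.22 and 0.17 RPKM, a ratio of 7.18 (2.41 to 27.0). Other genes of the cofactor path had ratios below 3, such as *Qdpr* at 2.62 and *Spr* at 1.34.

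Serotonin receptor genes that were higher in the CvP had low levels. *Htr1b*, a receptor that couples to inhibitory G proteins, had 1.58 RPKM in CvP and 0.03 in Epi, a ratio of 52.7 with a wide interval (9.67 to 2253) because the Epi held 1 read. *Htr4*, which couples to stimulatory G proteins, had 0.51 and 0.05 RPKM, a ratio of 10.2 (4.79 to 31.0). The ion channel receptor *Htr3a* had 0.42 and 0.02 RPKM (21.0, interval 4.03 to 1010). *Htr1d* had 0.29 RPKM in CvP and 0 in Epi and was at least 5.92-fold higher.

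The GABA genes among the 10 were all higher in the CvP. *Gad2* (chr2:22477847-22549397, plus strand), the glutamate decarboxylase known from nerve terminals, had 7.23 RPKM in CvP (6.82 to 7.65) and 0.01 in Epi, about 1178 reads against 2. The ratio was 723, with an interval of 160 to 4789. *Gad1* (chr2:70400221-70440069, plus strand), the other glutamate decarboxylase, had 2.81 RPKM in CvP (2.48 to 3.16) and 0.05 in Epi, about 267 reads against 5, a ratio of 56.2 (22.2 to 163). Both decarboxylases were thus present in the CvP and nearly absent from the Epi. Over the listed lengths, the *Gad2* level in the CvP was 2.57 times that of *Gad1* (2.26 to 2.95). The interval covers counting error only. The listed lengths of 9.313 kb in *Gad2* and 8.669 kb in *Gad1* exceeded their longest transcripts, 5.744 and 3.355 kb, by unlike amounts, and the value depends on the length used.

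*Slc6a11* (chr6:114081235-114199880, plus strand), a plasma membrane GABA transporter known from glia of the brain, had 5.29 RPKM in CvP (4.88 to 5.72) and 0 in Epi. With about 610 reads against none, it was at least 162-fold higher in the CvP, the highest such bound among the 5 genes without an Epi read. The GABA transporters *Slc6a13* and *Slc6a12* of its family were far lower in the CvP. *Slc6a13* had 0.23 RPKM in CvP and 0.02 in Epi, and *Slc6a12* had 0.08 and 0. The vesicular GABA transporter *Slc32a1*, which fills synaptic vesicles, had no read in either library, with an upper limit of 0.0465 RPKM in the CvP. Of the GABA genes named so far, both synthesis genes and *Slc6a11* were therefore above 1 RPKM in the CvP, and the vesicular transporter was not detectable at this depth.

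GABA is broken down by the transaminase *Abat* and then by *Aldh5a1*. *Abat* had 0.51 RPKM in CvP and 0.25 in Epi, a ratio of 2.04 (1.33 to 3.24), and *Aldh5a1* had 9.13 and 11.39 RPKM, a ratio of 0.802. Of the 27 listed GABA genes 19 were analysed, and of the 16 outside the 10 genes 7 were higher in the CvP, 0 lower, 3 between and 6 with at most 3 reads. The lower limit was above 1 in 6 of the 7, and the median log2 ratio of the 16 was 0.77. The highest of them was *Gabrp*, the pi subunit of GABA-A receptors known from epithelia, with 21.35 RPKM in CvP and 0.99 in Epi (21.6, interval 17.4 to 26.8). *Gabrp* passed both criteria of the study. The GABA-B receptor subunit *Gabbr2* had 0.25 and 0.01 RPKM, and the epsilon subunit *Gabre* had 0.13 and 0.01.

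The granins are acidic proteins that are stored with amines and peptides in dense-core granules. *Chgb* (chr2:132607014-132620808, plus strand) had 1.96 RPKM in CvP (1.66 to 2.30) and 0 in Epi and was at least 40.0-fold higher, from about 152 reads. *Chga* (chr12:103793179-103803237, plus strand) had 5.39 RPKM in CvP (4.79 to 6.05) and 0.61 in Epi (0.417 to 0.860), about 288 reads against 32. Its ratio of 8.84 (6.13 to 13.2) was the lowest of the 7 higher genes, and it was the only one of the 7 with an Epi level above 0.05 RPKM. Within the CvP the *Chga* level was 2.75 times that of *Chgb* (2.25 to 3.37).

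The promoters of the granins are shown because both hold a form of the cyclic AMP response element (CRE), a motif bound by the CREB family. The sequences are RefSeq's, on GRCm38.p6, and 9 of the 10 genes had an entry. Capitals mark TGACGTCA, the full element, or TGACG, its shorter core. The *Chgb* and *Chga* stretches are the 100 bases before the start site (chr2:132781542-132781641 and chr12:102554841-102554940, plus strand), and the *Slc18a2* stretch is 30 bases across it (chr19:59260863-59260892, plus strand).
Chgb: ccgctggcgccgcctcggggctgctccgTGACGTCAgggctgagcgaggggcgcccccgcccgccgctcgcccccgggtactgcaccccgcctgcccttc
Chga: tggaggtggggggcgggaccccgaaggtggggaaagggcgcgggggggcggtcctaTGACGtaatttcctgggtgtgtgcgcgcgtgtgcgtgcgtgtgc
Slc18a2: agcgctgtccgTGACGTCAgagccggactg
TGACGTCA, searched on both strands of windows of 300 bases, occurred in 1.79% of 32851 promoters, in 2.03% of the 27025 genes they belong to, and in 2 of the 9 genes, *Slc18a2* and *Chgb*. TGACG, which any TGACGTCA also contains, occurred in 20.8% of promoters, 23% of genes and 6 of the 9 genes, the others being *Tph1*, *Maoa*, *Gad2* and *Chga*. TATAAA, the letters of the TATA box, occurred in 13.6% of promoters, 15.7% of genes and in *Ddc*, *Gad1* and *Chga*. In *Ddc* and *Gad1* these letters were on the strand opposite to the gene, and in *Chga* they lay after the start site, at bases 6 to 11. The full element was therefore found in 1 gene that was higher in the CvP and in 1 that was not, and these matches are descriptions of sequence.

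Of 16 listed genes for granins and prohormone processing, 14 were outside the 10 genes. Of these, 8 were higher in the CvP, each with a lower limit above 1, 0 were lower, 4 lay between and 2 had at most 3 reads, and the median log2 ratio was 1.73. *Pcsk1*, the convertase that cleaves prohormones in granules, had 10.71 RPKM in CvP and 0.03 in Epi, a ratio of 357 (110 to 3307). *Cadps2*, which primes dense-core vesicles for release, had 17.05 and 0.19 RPKM, a ratio of 89.7 (60.4 to 136), and its relative *Cadps* had 2.76 and 0.04 RPKM (69.0, interval 32.1 to 193). On the RPKM as deposited, *Pcsk1* and *Cadps2* passed both criteria of the study, unlike the granins. After scaling to a total RPKM of 1000000, *Chga* passed both and *Chgb* did not.

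Some other granule genes were also higher in the CvP, while *Vgf* lay between (0.05 and 0.03 RPKM, about 4 reads against 2). *Pcsk2* (0.02 and 0.01 RPKM) and *Pcsk1n* (0.04 and 0.02 RPKM) had at most 3 reads in either library. *Scg5*, a chaperone of a prohormone convertase, had 6.49 and 0.03 RPKM, a ratio of 216 (38.8 to 8663), and *Ptprn2*, a membrane protein of dense-core granules, had 3.84 and 0.09 RPKM, a ratio of 42.7 (23.8 to 81.6). *Scg3*, a granin that binds *Chga* protein, had 1.6 RPKM in CvP and 0 in Epi and was at least 26.2-fold higher. The general processing enzymes had ratios below 3. *Cpe*, a carboxypeptidase, had 80.91 and 41.62 RPKM, and *Pam*, the amidating enzyme, had 20.2 and 10.39 RPKM, both at a ratio of 1.94.

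*Ncam1* (chr9:49310251-49607174, minus strand), which encodes the adhesion molecule NCAM, had 1.39 RPKM in CvP (1.23 to 1.57) and 0 in Epi. Its listed exon model is long enough that 1 Epi read would be worth 0.0038 RPKM and round to 0. With about 261 CvP reads it was at least 45.7-fold higher if such a read was hidden and at least 69.1-fold higher if there was none. In the other 4 of the 10 genes at 0, 1 read would not have rounded to 0. *Ncam1* shares 254 of its 10121 annotated exon bases with *Gm11149* on the opposite strand, a row with 0.14 RPKM in CvP and 0 in Epi, and the counting was not stated to use strand.

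Of the 9 other genes on the neural cell adhesion list, 6 were higher, each with a lower limit above 1, against 20.8% of all rows. None was lower and 3 lay between, with a median log2 ratio of 1.43. The 9 included the enzymes *St8sia2* and *St8sia4*, both among the 6, and the receptor gene *Fgfr1* (6.48 and 2.19 RPKM), which lay between. *Nrcam* and *Nfasc*, of the L1 family, had 2.38 and 1.42 RPKM in the CvP against 0.01 and 0 in the Epi. The ratio of *Nrcam* was 238 (69.4 to 2085), and *Nfasc*, where 1 Epi read would also round to 0, was at least 69.2-fold higher with such a read and at least 105-fold without. *Cdh2*, N-cadherin, had 2.34 and 0.01 RPKM, a ratio of 234 (54.0 to 12000). *Ncam2* had 0.17 and 0 RPKM and was at least 5.92-fold higher. The enzymes that add polysialic acid to NCAM were low, *St8sia2* at 0.06 and 0 RPKM and *St8sia4* at 0.15 and 0.04. *L1cam* and *Chl1*, also of the L1 family, had ratios of 1.58 and 0.768.

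**Figure D4:**
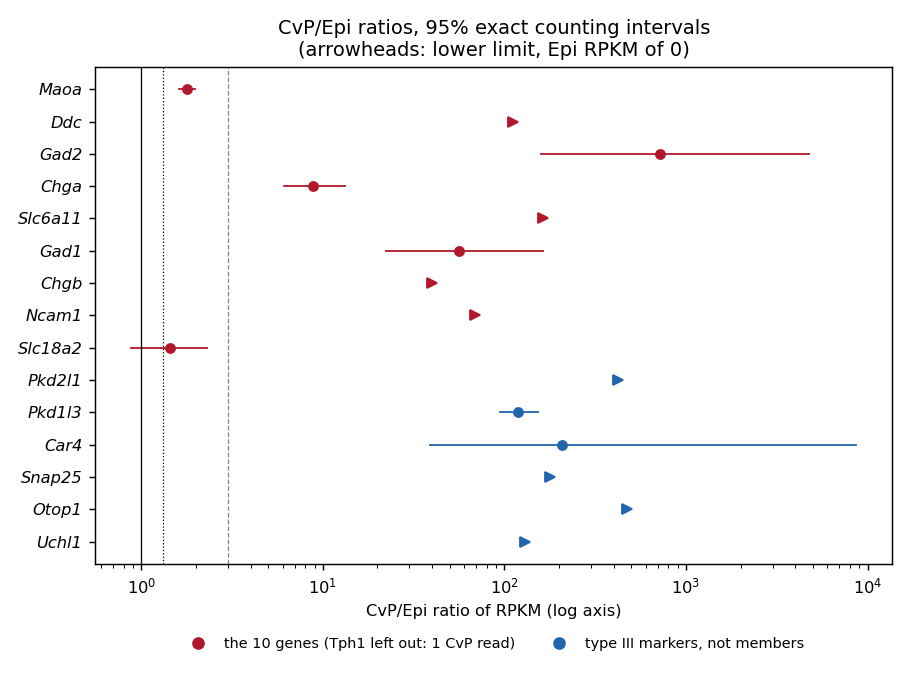
CvP/Epi ratio of RPKM on a log axis for 9 of the 10 genes (red; *Tph1* left out) and the 6 type III markers (blue), with 95% exact counting intervals; arrowheads mark the lower limit where Epi is 0. The lines stand at a ratio of 1 (solid), the median ratio of 1.31 (dotted) and 3 (dashed); *Maoa* and *Slc18a2* lie between 1 and 3, *Chga* at 8.84, and the other 6 genes at or above 40.0.

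*Ddc*, *Slc18a2* and *Maoa* also serve dopamine and noradrenaline, so the remaining catecholamine genes were counted. Of 6, 2 were higher in the CvP, 1 was lower, 2 lay between and 1 had at most 3 reads. Of all rows, 20.8% were higher and 2.67% lower. The median log2 ratio of the 6 was 0.86, against 0.49 over all rows. *Th*, tyrosine hydroxylase, had 0.52 and 0.06 RPKM, a ratio of 8.67 (2.61 to 44.0), and the dopamine transporter *Slc6a3* had 0.15 and 0. *Dbh*, which makes noradrenaline, had 0.02 RPKM in the CvP, 1 read, and 0 in the Epi. *Pnmt*, which makes adrenaline and was the 1 lower gene, had 0 in CvP and 0.17 in Epi, about 4 reads. The upper limit of its ratio was 1.49, so it was not distinguishable from 1 at this depth. The *Ddc* level in the CvP was therefore above that of each hydroxylase measured, *Th*, *Tph1* and *Tph2*.

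Several of the 10 genes are also known from nerve, Schwann cells and other cells, so lists for these were summed in each library. Of 10 neuronal markers, 4 were higher in the CvP, 1 lower, 1 between and 4 with at most 3 reads. In 3 of those higher the lower limit of the ratio was above 1. The 10 markers summed to 13.8 RPKM in CvP and 42.8 in Epi. Most of the Epi sum was *Tubb3* (4.58 and 40.37 RPKM). *Slc6a2* had 5.95 and 2.34, and *Nefl*, a neurofilament, had 2.32 and 0. *Gap43* had no read in either library and *Prph*, *Stmn2* and *Dbh* had at most 2 reads in the CvP. Of 4 glial markers analysed, from 5 listed, 1 was higher, 2 between and 1 with at most 3 reads. Their sums were 10.6 and 9.05 RPKM, led by *Mbp* (10.29 and 8.94) and *Sox10* (0.18 and 0.08). The higher one, *S100b* (0.13 and 0.02), had about 5 reads against 1, with a lower limit of the ratio of 0.55. *Nefl*, *Th* and the neurofilament gene *Nefh* (0.29 and 0.06 RPKM, ratio 4.83, interval 2.02 to 12.4) moved with the 7 higher genes. Their part in the result was not tested.

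Merkel cells, platelets and mast cells are other known sources of amine or granule genes. Of 4 Merkel cell markers analysed, *Krt20* (26.83 and 0 RPKM) and *Sox2* (81.98 and 19.11) were higher in the CvP, and both are also known from taste buds. *Atoh1*, also listed, had no row in the gene table. *Fam38b*, the touch channel of Merkel cells, had 0.31 and 0.74 RPKM and *Isl1* had 0.03 and 0.05, with sums over the 4 of 109 and 19.9. Of 5 platelet markers 2 were higher, with sums of 127 and 2.5 RPKM, nearly all of it *Ppbp* (123.96 and 0.2), while *Pf4* had 0.48 and 0.06, *Itga2b* had 2.62 and 2.03 and *Gp9* had no read. Of 3 mast cell markers analysed, from 9 listed, 2 were higher, *Kit* (26.34 and 1.81) and *Hdc* (2.27 and 0.02), while the protease *Cpa3* had 0 in CvP and 0.03 in Epi, and the sums were 28.6 and 1.86. The part of these cells in the values of the 10 genes was not tested.

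**Figure D5:**
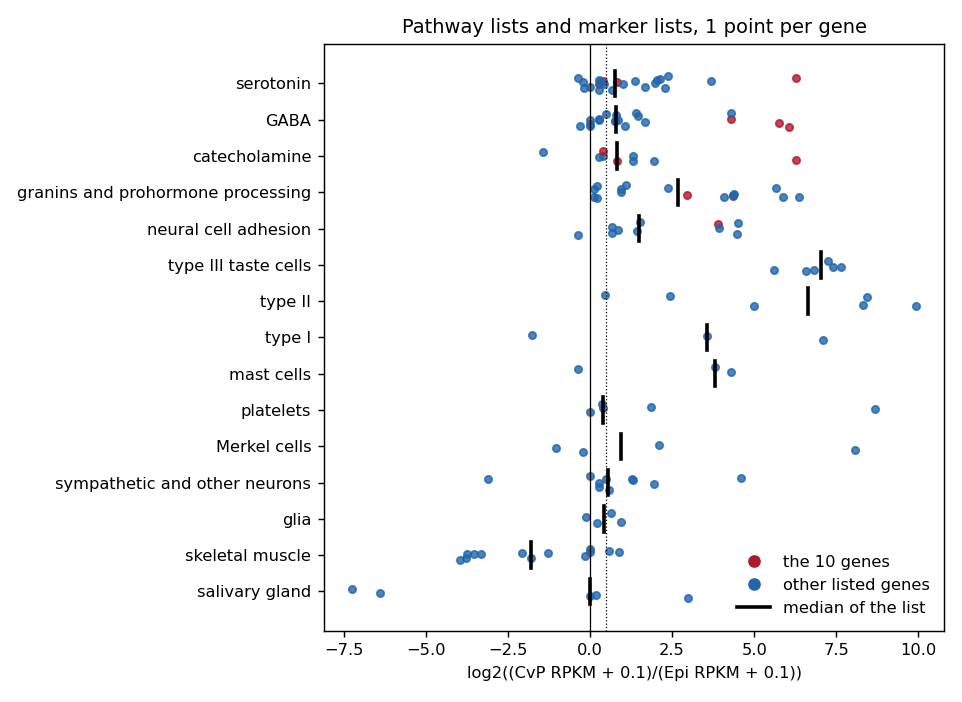
Log2 ratio of CvP to Epi RPKM, each plus 0.1, for every gene of the 5 pathway lists and 10 marker lists (1 point per gene, red for the 10 genes, black bar for the median of the list); the solid line is 0 and the dotted line the median of all rows, 0.49. The medians of the serotonin, GABA and catecholamine lists lie at 0.75, 0.80 and 0.82 while *Ddc* and the *Gad* genes lie far to the right of it, and the type III list has the median farthest to the right, 7.02.

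Taste cells of the other types were also present in the CvP library. Of 6 type II markers 5 were higher, led by *Gnat3* (127.11 and 0.03 RPKM), *Plcb2* (70.01 and 0.12) and *Trpm5* (37.8 and 0.01), with sums of 309.8 and 26.3. Of 3 type I markers, *Entpd2* (54.83 and 4.53) and *Kcnj1* (13.5 and 0) were higher and *Slc1a3* (1.04 and 3.82) was lower, with sums of 69.4 and 8.35. In bulk RNA the cell that a transcript came from was not measured, so the 7 higher genes cannot be assigned to type III cells from these values.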

How the data were processed

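Poly(A) RNA of the CvP and the Epi was made into 1 library each (TruSeq) and sequenced as single-end reads of 75 bp on a Genome Analyzer IIx. The authors mapped the reads with Bowtie 0.12.7 to NCBI37/mm9 and deposited RPKM values from ERANGE on an exon model per gene, with the length of that model. How ERANGE was set, and how it treated reads with more than 1 match, is not given in the sources used here. The authors' CvP/Epi column, which holds their own comparison, was not used. All 18498 rows entered each count, 455 rows without a gene symbol included.

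The RPKM of 1 read in the 163 rows of 0.1 kb (0.352 in the CvP, 0.358 in the Epi) gave the depth. In rows of at most 0.5 kb with under 20 reads, 96.4% of 331 CvP values and 97.4% of 308 Epi values were whole reads within 0.1 read. Each RPKM was turned into reads over the listed length or, if shorter, over the longest GENCODE M1 coding transcript, which gives fewer reads and wider intervals than the listed length would. The reads printed above are therefore low estimates where the lengths differ. Over the listed length, CvP and Epi reads were 691 and 12 in *Gad1*, 1910 and 3 in *Gad2*, and 551 and 0 in *Ddc*. The interval of the *Gad1* ratio was then 32.2 to 110. Ratios have 95% exact (Clopper-Pearson) intervals, which cover counting error only. A gene with no Epi read is given by the lower limit, and no ratio was formed where both libraries held 3 reads or fewer. Log2 ratios have 0.1 RPKM added, which understates the change of low genes. With 1 pooled library per tissue no test was run. Shared windows are stretches of 75 bases with at most 2 mismatches, and none was found between the 10 genes and the 1 to 3 relatives searched for each. Scripts were tested on simulated data.

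The 10 genes and all lists were chosen with earlier results of these data known. The rule named the 10 genes, up to 8 genes per pathway list with a ratio above 3 or below 1/3 and more than 3 reads, the type III markers, the 3 highest CvP genes of each other marker list and the 3 rows most like *Maoa*. *Tph2*, *Slc18a1*, *Slc6a4*, *Maob*, *Qdpr*, *Spr*, *Slc32a1*, *Abat*, *Aldh5a1*, *Cpe*, *Pam*, *L1cam*, *Chl1*, *Fgfr1*, *Dbh*, *Nefh*, *Gap43*, *Prph*, *Stmn2*, *Gp9*, *Isl1*, *Amy1* and *Gm11149* were named after their values were seen. So were *Vgf*, *Pcsk2* and *Pcsk1n*. Some listed genes are not reported here and were left out of their lists. Alternatives were other minimums, pseudocounts, scalings and lengths. Python 3.11.15, numpy 2.4.6, pandas 2.3.3, scipy 1.17.1 and matplotlib 3.10.9 were used.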

Additional observations from a re-analysis of the deposited data

How the results depend on the processing

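No paired analysis was possible because CvP and Epi had 1 pooled library each, and no replicate could be left out. Ratios were recomputed under the alternatives for *Slc18a2*, *Maoa*, *Gad1*, *Gad2* and *Chga*, and none changed direction. For *Ddc*, *Slc6a11*, *Chgb* and *Ncam1*, at 0 in the Epi, the lower limit alone was recomputed and stayed above 1. *Tph1* had no ratio to recompute. The number of the 10 genes passing both criteria, 0, became 7 with a minimum CvP RPKM of 1, where 10.8% of all rows passed. It became 4 with a minimum of 5 (4.23% of rows) and 4 after rescaling RPKM to a sum of 1000000 (7.47% of rows). It stayed 0 in the other alternatives. The 4 were *Ddc*, *Gad2*, *Slc6a11* and *Chga* in both cases; the lower minimum or the larger values after rescaling let them pass. The number with a ratio above 3, 8, became 5 with a pseudocount of 1 RPKM, which dropped *Tph1*, *Chgb* and *Ncam1* and left 4.98% of all rows. It was 7 or 8 otherwise. Counting only genes with more than 3 reads, an alternative chosen after seeing the data, gave 7, against 20.8% of all rows. The median log2 ratio of 4.09 became 1.71 with a pseudocount of 1 RPKM, 6.34 with 0.01 RPKM, 3.69 after division by the median ratio, 5.31 after rescaling and 4.32 over the members with at least 1 RPKM. The ratio of *Gad2* fell to 66.6 and that of *Gad1* to 19.4 with a pseudocount of 0.1 RPKM, and to 8.15 and 3.63 with 1 RPKM, which also took *Chga* from 8.84 to 3.97, so the size of the *Gad* ratios rests on few Epi reads. Against a floor of 3 Epi reads, also chosen after seeing the data, the CvP level was 138 times in *Ddc*, 200.1 times in *Slc6a11*, 49.8 times in *Chgb* and 85.5 times in *Ncam1*; these leave out counting error and exceed the lower limits in the report. Depth limits *Tph1* and *Slc18a2* most, at 1 and 46 CvP reads.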

Other observations

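The remaining marker lists concern tissue under and beside the epithelium. Of 13 skeletal muscle genes, 8 were lower in the CvP, 1 was higher, 1 lay between and 3 had at most 3 reads in either library. Their RPKM summed to 4.88 in CvP and 50.7 in Epi, with *Mylpf* at 1.63 and 7.12, *Acta1* at 0.86 and 12.88 and *Tnnt3* at 0.75 and 9.85. Of 5 salivary gland genes analysed, from 7 listed, *Aqp5*, a water channel, was higher in the CvP (6.09 and 0.69 RPKM). *Lipf* (1.96 and 313.42) and *Amy1* (0.85 and 80.48) were lower, and 2 lay between, among them *Muc19* (1.32 and 1.31). Their sums were 10.4 RPKM in CvP and 396 in Epi. The 7 higher genes among the 10 thus had their high values in the library with the lower muscle and gland sums, and the part of these tissues in the result was not tested.

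*Hdc*, the histidine decarboxylase that makes histamine, is a relative of *Ddc* and had 2.27 RPKM in CvP and 0.02 in Epi, about 153 reads against 1 and a ratio of 114 (26.6 to 5982). Of the 3 mast cell markers analysed, from 9 listed, *Hdc* and *Kit* (26.34 and 1.81 RPKM) were higher in the CvP. The third, the mast cell protease *Cpa3*, had no read in the CvP and 0.03 RPKM in Epi. The part of mast cells in the *Hdc* value was not tested.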
